A study of Rattus norvegicus with 38 samples.

Results

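Gene expression in peripheral blood mononuclear cells (PBMC) was compared between rats that had received a heart transplant and rats that had not, in the Brown Norway (BN) and Dark Agouti (DA) strains. The comparison took all 20 PBMC samples of a series of 38 samples, of which the other 18 were hearts. PBMC are the white cells of low density that a density gradient separates from blood, mainly lymphocytes and monocytes, and most red cells and granulocytes are left behind by the gradient. There were 14 transplanted animals: 5 BN rats that carried an allogeneic DA heart in the abdomen, and 9 DA rats that carried an isogeneic DA heart. The 6 untransplanted animals were 3 BN and 3 DA rats. Blood was taken on post-operative day 6 from the recipients. Age and sex are not given in the sources used here. RNA was amplified, labelled and hybridized to Affymetrix RAE230 2.0 arrays, 1 array for each sample. Recipients and controls differ in more than the graft: all transplanted samples were processed in 1 batch and all untransplanted samples in another, no untransplanted group had sham surgery, and every BN recipient was an allograft recipient whereas every DA recipient was an isograft recipient. Transplantation and batch cannot be told apart in these samples, within either strain. In each strain, the change also carries the type of graft.

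Blood after surgery is known to change in several ways. New red cells leave the marrow as reticulocytes, which still hold globin, heme synthesis and membrane transcripts that mature red cells lose. Neutrophils and immature myeloid cells are released, monocytes are mobilised, and lymphocytes are redistributed under stress hormones. PBMC RNA is a pooled measure, so that fewer cells of a type and less RNA per cell cannot be told apart.

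The recipients' arrays stood apart from the controls' arrays before any gene was considered. The median signal of an array was 20.3 to 23.7 in the 6 untransplanted samples and 26.7 to 36.8 in the 14 transplanted samples, with no overlap, whereas the 75th percentile was 113 to 121 and 114 to 119. The higher median on an array scaled to a common trimmed mean shifts bright probesets down once signals are divided by the array median: over the 16805 probesets past the signal criterion (a level of 1 array median or more in 50% or more of either the recipients or the controls), the median log2 change was -0.49, against -0.04 after quantile normalization and 0.01 on the deposited scale. Over all 31042 probesets the median was -0.15, -0.00 and 0.35. The log2 ratio of the 3′ to the 5′ control probeset of Actb, a measure of how far labelled RNA extended toward the 5′ end, was 0.11 to 0.24 in untransplanted and 0.39 to 1.46 in transplanted samples, again with no overlap. In an exact permutation test within strains (two-sided, 10 array measures), the median signal differed at p = 8e-05, the smallest p this test can give (0.00081 after adjustment over the 10), and the Actb ratio at p = 5e-04 (0.0024 after adjustment). The Gapdh ratio overlapped, at -0.02 to 0.98 against 0.01 to 0.44 (exact permutation p = 0.2). Spiked control transcripts stood apart on 4 arrays, those of DA isograft recipients 11, 14 and 16 and untransplanted DA 3: dap was at 8.41 to 9.05 on the log2 scale against 4.85 to 6.78 on the other arrays, lys at 5.18 to 6.23 against 3.23 to 4.63, and thr at 6.07 to 6.98 against 2.26 to 4.89. No pair of arrays was identical, and the correlation between arrays was 0.875 to 0.952.

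**Figure D1:**
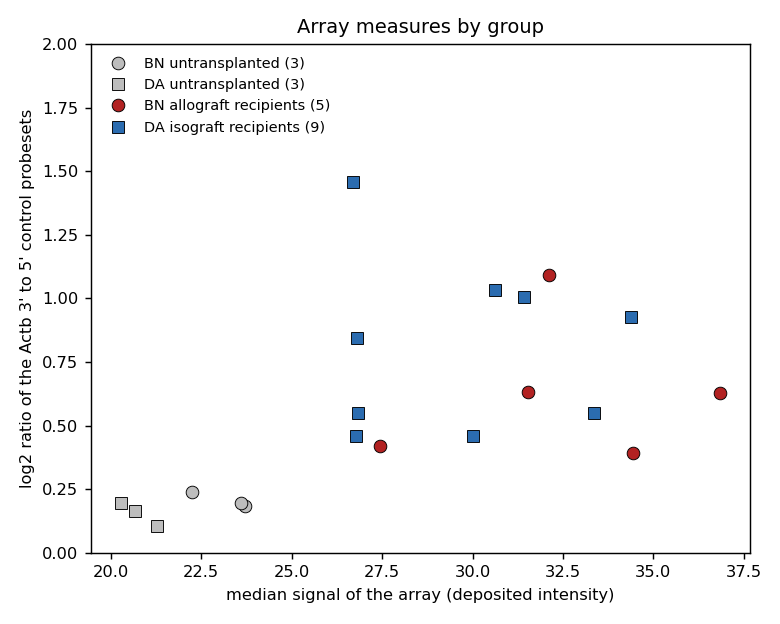
Median signal of each array (x axis, deposited intensity) against the log2 ratio of the Actb 3′ to 5′ control probesets (y axis), 1 point per sample, with the number of samples of each group in the key. The 6 untransplanted samples lie at or below 23.7 and 0.24 and the 14 transplanted samples at or above 26.7 and 0.39.

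The effect of transplantation was estimated with strain as a covariate on log2 of signal over array median, and all levels below are in array medians, so that 1 is the level of the middle probeset of that array. Of 31042 probesets, 114 (0.367%) were called higher and 448 (1.44%) lower in recipients, at an adjusted p of 0.10 or less and a fold of 3 or more. The split depended on the scale: 139 were called higher and 287 lower after quantile normalization, and 353 higher and 171 lower on the deposited scale. Within BN, 142 (0.457%) were called higher and 485 (1.56%) lower, and within DA 170 (0.548%) higher and 486 (1.57%) lower. Of the probesets called higher, 36 were called in each strain, which is 25.4% of those in BN and 21.2% of those in DA. Of the probesets called lower, 230 were called in each strain (47.4% and 47.3%). No probeset was called in opposite directions in the 2 strains. The contrasts within BN and within DA came from 1 model of all samples and shared 1 estimate of spread. Changes were taken as seen in both strains where the probeset was called and both contrasts had the same direction. Each contrast also needed an adjusted p of 0.10 or less and at least a fold of 2. That left 87 probesets higher (0.28%) and 394 lower (1.27%). Under quantile normalization the numbers were 105 and 192, of which 70 and 191 were the same probesets. On the deposited scale they were 298 and 128. Across the probesets past the signal criterion, the changes in BN and DA had a Pearson correlation of 0.798, which is a description: the strains used separate animals but shared the batches. The difference of the change between strains passed an adjusted p of 0.10 for 107 probesets (0.345%), and for none of the 481 seen in both strains. Those 481 were chosen for a change in the same direction in each strain, so that this count is no test of agreement.

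**Figure D2:**
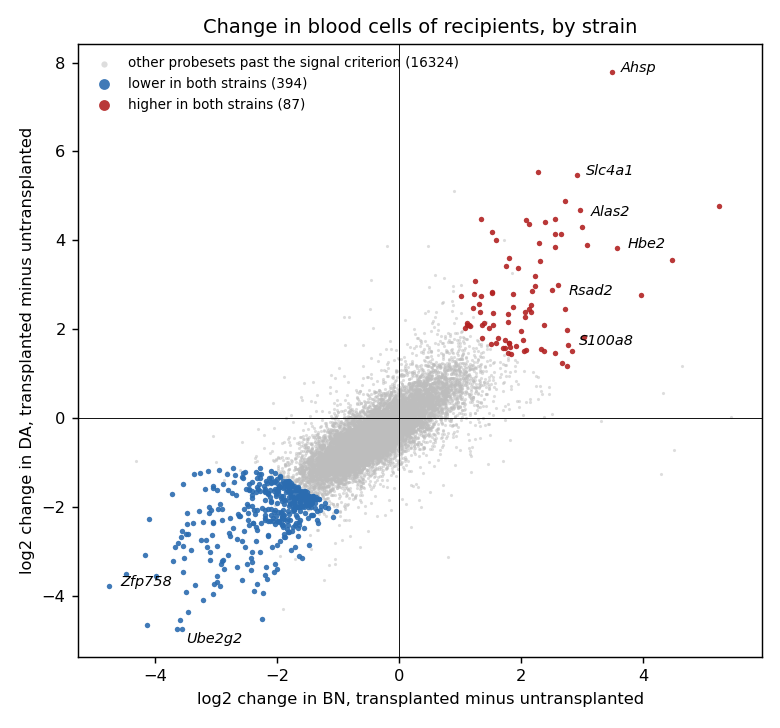
Log2 change in BN (x axis) against log2 change in DA (y axis), transplanted minus untransplanted, for the 16805 probesets past the signal criterion. The 87 probesets higher in both strains (red) include Ahsp, Slc4a1, Alas2 and Hbe2 at the top, and the 394 lower in both strains (blue) form the cloud at the lower left.

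Most of the named genes that rose are transcripts of young red cells. Of the 10 named genes, those that rose most among genes with no overlap between recipients and controls in either strain, Ahsp (the chaperone of free alpha globin), Slc4a1 (the band 3 anion exchanger of the red cell membrane), Aqp1 (its water channel), Alas2 (the first enzyme of heme synthesis in red cells), Alox15 (the lipoxygenase that acts on organelle membranes as reticulocytes mature), Hbe2 and Hba-a3 (globins) and Hemgn (a nuclear protein of erythroid cells) are known from that lineage, beside Cd52 (a surface glycoprotein known from lymphocytes) and Tfdp2 (a partner of E2F factors). Genes named in the text beyond the naming rule given with the methods, among them Add2, Epb42, Ank1, Klf1, Itgam, Ifit1, Mki67 and Bmal1, were chosen after their values were seen. The fold across strains ran from 8.31 for Tfdp2 to 57.2 for Ahsp. The other probeset of Aqp1, which was brighter, had a log2 change of 0.80, against 3.90 for the one named. The 2 other probesets of Tfdp2 changed by -0.31 and 1.51, against 3.06, and the first of them was brighter than the one named. Tfdp2 was not seen in both strains by the full rule after quantile normalization.

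Ahsp was 0.061, 1.03 and 1.13 in untransplanted BN 1 to 3, and 2.54, 9.11, 13.0, 4.06 and 1.78 in BN recipients 3 to 7. In DA it was 0.061, 0.611 and 0.029 in the controls, against a lowest of 6.92, a median of 29.5 and a highest of 71.5 in the 9 recipients. The log2 change was 5.84 ± 0.87 (SE, adjusted p = 2.4e-05), with 3.49 in BN and 7.79 in DA, a difference that did not pass the test (adjusted p = 0.39). Several controls lay far under the array median, where signals are dominated by background, and with 0.25 array medians added to every signal the log2 change of Ahsp was 4.33.

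Slc4a1 was 0.52, 2.19 and 1.81 in the BN controls and 3.59, 16.4, 21.7, 10.3 and 6.09 in BN recipients 3 to 7. In DA the controls were at 0.721, 1.70 and 0.79 and the recipients at 13.4 to 110 with a median of 69.5. The log2 change was 4.30 ± 0.55 (adjusted p = 6.2e-06), and the other probeset of Slc4a1 changed by 2.97. Alas2 was 0.786, 5.64 and 3.72 in the BN controls and 10.5, 28.2, 40.2, 16.9 and 15.1 in the BN recipients. In DA, Alas2 was 1.63, 4.46 and 1.58 in the controls and 26.4 to 117 with a median of 79.2 in the recipients (log2 change 3.90 ± 0.48, adjusted p = 3.8e-06).

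Among the globins, the bright Hbb changed less than Hba-a3. Hba-a3 was 1.92, 14.5 and 10.1 in the BN controls against 20.9 to 71.5 in the BN recipients, and 4.13, 13.3 and 4.99 in the DA controls against 74.9 to 183 in the DA recipients (log2 change 3.47 ± 0.40). Hbb was 12.1, 127 and 105 in the BN controls and 124 to 155 in the BN recipients, so that only untransplanted BN 1 lay clearly below. In DA it was 49.1, 127 and 56.9 in the controls and 129 to 246 in the recipients (log2 change across strains 1.32 ± 0.34, adjusted p = 0.0032). The Hbb probeset can share signal with near-identical globin genes, and globins at this level may approach the top of the array's range. Hbe2, an embryonic type beta globin, stayed dim, at 0.519 to 1.52 and 0.704 to 2.6 in BN and DA recipients against 0.056 to 0.126 and 0.048 to 0.249 in controls (log2 change 3.71 ± 0.33).

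Of the 29 measured genes of a red cell list, 18 rose, 2 fell and 9 did not pass an adjusted p of 0.10, with a median log2 change of 1.36. Over all 14217 genes with 1 symbol, each taken by its brightest probeset, 19.9% rose and 47% fell, with a median of -0.27. After quantile normalization 23 of the 29 rose and none fell (median 1.46), where 24.8% of all genes rose and 22.9% fell. Add2 (adducin, log2 change 3.61), Epb42 (band 4.2, 3.38), Ank1 (ankyrin, 3.09), Kel (the Kell blood group protein, 2.91), Rhd (the Rh blood group antigen, 2.73) and Slc25a37 (mitoferrin, which carries iron into mitochondria, 3.49-fold) rose. Fech, the last enzyme of heme synthesis, rose by 1.96 and Bpgm, which sets the red cell's oxygen affinity, by 1.49. The transcription factors of the lineage did not follow as a group: Klf1 rose by 1.14, Gata1 was at -0.14 (adjusted p = 0.45), Nfe2 at -0.11 (0.51), and Tal1 fell by 0.46, a fall that was not seen after quantile normalization (0.11). Urod and Gypc did not pass the test, at -0.25 and -0.04. Of these 29 genes, 8 had no overlap between recipients and controls in both strains and in the upward direction, against 2.69% of all genes. The summed level of the list overlapped in BN, at 219 to 386 in controls and 345 to 567 in recipients. In DA the sum was 334 to 446 in controls and 577 to 1430 in recipients, with no overlap.

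The order of the animals was shared among these genes. DA isograft recipients 9, 11, 14 and 16 were the lowest 4 of the 9 DA recipients for all 12 members of the red cell list that were called higher, and BN allograft recipient 5 was the highest of the 5 BN recipients for all 12. Over all 57 genes higher in both strains the same held for 28 and 43. These animals were named after the levels were seen, so that the counts describe an order and do not test it. Of those 4 DA recipients, 3 (11, 14 and 16) also had the high dap, lys and thr controls, and the part of that in the order was not tested. Without the 4 arrays of high spiked controls, 110 probesets were higher and 351 lower in both strains, and the red cell list had a median of 1.46. Cd52, Tfdp2, Rsad2 and Ube2c, which are not on the red cell list, had the same lowest 4 DA recipients, whereas S100a8 did not. Because the animals formed sets with a gap between them, no correlation is given.

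**Figure D3:**
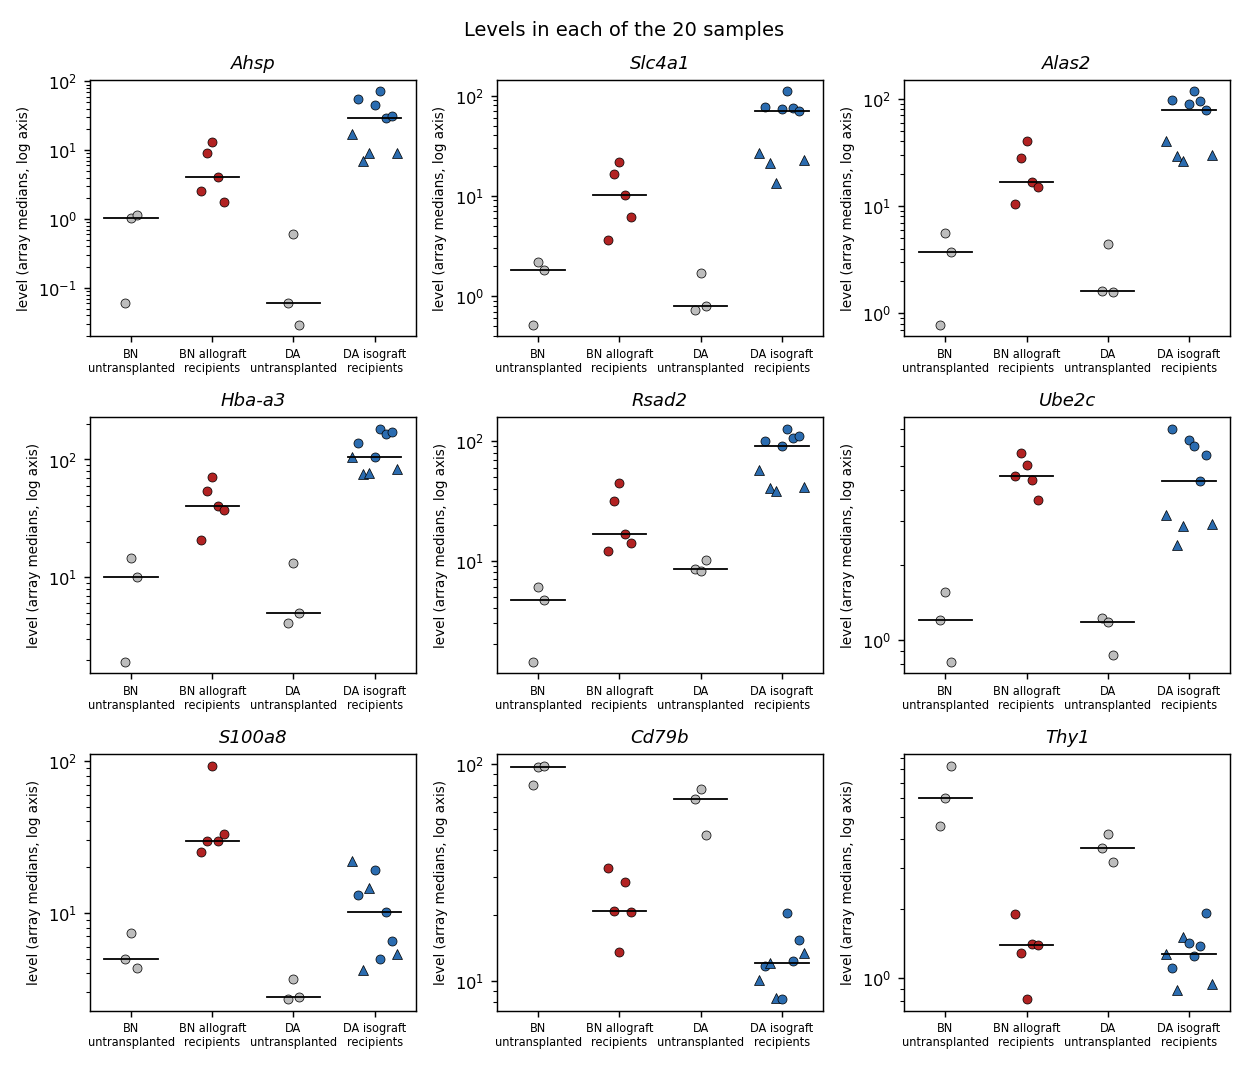
Level of 9 genes in each of the 20 samples, in array medians on a log axis, with a bar at each group's median. Triangles mark DA isograft recipients 9, 11, 14 and 16, which are the lowest 4 recipients of their group for Ahsp, Slc4a1, Alas2, Hba-a3, Rsad2 and Ube2c but not for S100a8, Cd79b or Thy1.

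Promoter sequence was available here from RefSeq (GRCr8) for 6 of the 10 named risers. The erythroid GATA box was searched as AGATAA and the CACCC box as CCACCC, on both strands, in the 200 bases before the annotated start; the letters of the 2 motifs do not overlap. AGATAA was present in 5 of 19 red cell genes with a promoter (26.3%) and in 7.94% of all 27457 promoters, and CCACCC in 3 of 19 (15.8%) and 22.8%. Among the 38 genes higher in both strains that had a promoter, 6 (15.8%) held AGATAA and 13 (34.2%) held CCACCC. Shown are the risers that hold either motif, with its letters in capitals on whichever strand it lies. Alas2 is at chrX:22895250-22895449 (plus strand), Aqp1 at chr4:85812584-85812783 (plus strand) and Cd52 at chr5:151605097-151605296 (minus strand).
Alas2: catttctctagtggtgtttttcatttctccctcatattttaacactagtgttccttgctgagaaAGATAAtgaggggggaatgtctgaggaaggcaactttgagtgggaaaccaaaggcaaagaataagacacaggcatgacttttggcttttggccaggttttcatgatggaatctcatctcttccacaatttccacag
Aqp1: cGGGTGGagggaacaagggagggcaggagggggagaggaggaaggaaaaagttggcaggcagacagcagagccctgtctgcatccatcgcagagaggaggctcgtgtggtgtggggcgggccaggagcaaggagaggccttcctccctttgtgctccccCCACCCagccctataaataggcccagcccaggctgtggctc
Cd52: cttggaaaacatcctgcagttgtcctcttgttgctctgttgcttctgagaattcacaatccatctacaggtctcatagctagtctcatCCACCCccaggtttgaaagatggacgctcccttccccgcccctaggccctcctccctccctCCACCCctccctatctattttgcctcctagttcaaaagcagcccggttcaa
The GATA box of Alas2 begins 136 bases before the start, and the pairs of CACCC boxes begin 199 and 41 bases before the start of Aqp1 and 112 and 51 before that of Cd52. Hba-a3, Hemgn and Tfdp2 held neither set of letters in this window. A match is a description of letters and not of a factor bound there, and the reference genome is not that of these animals.

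Rsad2 (viperin) rose away from the rest of its list. It is known as an interferon-induced antiviral protein, and was 1.43, 6.08 and 4.67 in the BN controls, 12.1 to 44.6 in the BN recipients, 8.19 to 10.1 in the DA controls and 38.3 to 127 in the DA recipients, with no overlap in either strain (log2 change 2.82 ± 0.35, adjusted p = 4.3e-06). Ifit1, which binds viral RNA caps, was the only other riser, by 1.37. Of the 32 measured interferon-induced genes 2 rose, 18 fell and 12 did not pass, with a median of -0.50. After quantile normalization 10 rose and 9 fell, with a median of -0.08. The shares of all genes that rose and fell were 19.9% and 47%, and 24.8% and 22.9% after quantile normalization. The letters of the interferon response core, GAAANNGAA, stood on either strand of the same 200 bases in 17 of the 24 list genes with a promoter (70.8%) and in 6.36% of all promoters. Mx2, a dynamin-like antiviral GTPase, fell by 1.63 ± 0.19 (adjusted p = 2.4e-06), from 2.44 to 1.10 on average in BN and from 9.72 to 2.38 in DA. Dhx58, an RNA sensor of the RIG-I family, fell by 1.44 and Mx1 by 1.08. The change differed between strains for Oas1a, an activator of RNase L, which was 3.2 in BN controls and 5.28 in BN recipients but 11.3 and 3.96 in DA (adjusted p of the difference 0.0056), and for Ifitm3, a membrane protein that blocks viral entry, which was 0.543 and 1.28 in BN and 2 and 1.45 in DA (adjusted p of the difference 0.048).

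Neutrophil transcripts rose across strains, and 1 of the 14 measured, S100a8, was seen in both strains by the full rule. The calgranulin S100a8 was 4.95, 7.4 and 4.36 in the BN controls and 25.3, 29.7, 93.2, 29.8 and 32.9 in BN recipients 3 to 7. In DA it was 2.71, 3.67 and 2.81 in the controls and 4.22 to 22.1 with a median of 10.2 in the recipients, which lay above the controls in both strains (log2 change 2.15 ± 0.37, adjusted p = 9.1e-05). Its partner S100a9 was 1.11, 1.82 and 1.75 in the BN controls and 26.6 to 111 in the BN recipients, but overlapped in DA, at 4.29 to 5.07 in controls and 4.15 to 42.5 in recipients. The log2 change of S100a9 was 4.64 in BN and 1.16 in DA, and the difference did not pass the test (adjusted p = 0.17). Of 14 measured neutrophil genes 10 rose and none fell, with a median of 1.11, and after quantile normalization 8 rose and none fell, with a median of 0.94. Over all genes 19.9% rose and 47% fell, with 24.8% and 22.9% after quantile normalization. Csf3r, the receptor of granulocyte colony-stimulating factor, rose by 0.77 and Cxcr2, a chemokine receptor that calls neutrophils to tissue, by 1.38. Only 3 of the 14 had a mean level at or above the array median, and the granule genes Camp, Np4 and Defa5 were dim and did not pass the test. The summed level of the list was 20.2 to 21.3 in BN controls and 72.1 to 226 in BN recipients, and 10.9 to 14.7 in DA controls and 18.2 to 83.8 in DA recipients. In BN recipient 5, the highest of its group for both, S100a8 and S100a9 made up 93.2 and 111 of the 226. They were a smaller part in the BN controls, at 4.36 to 7.4 and 1.11 to 1.82 of sums of 20.2 to 21.3. With the Actb ratio as a covariate the log2 change of S100a8 was 1.43.

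Monocyte genes rose by less, and how many rose depended on the scale. Of 19 measured, 11 rose and 3 fell with a median of 0.46, and 14 rose and none fell after quantile normalization, with a median of 1.02. The shares of all genes that rose and fell were 19.9% and 47%, and 24.8% and 22.9% after quantile normalization. Cd14, the co-receptor for endotoxin, rose by 0.76 ± 0.22, the scavenger marker Cd68 by 0.46 and Itgam, an integrin of myeloid cells, by 1.08. Csf1r, the receptor that maintains monocytes, was at 0.26 (adjusted p = 0.24), and at 0.82 after quantile normalization (adjusted p = 0.00065). Lyz2 (lysozyme) and Ctss (cathepsin S) fell by 0.62 and 0.52, and were at 0.07 and 0.08 after quantile normalization. The summed level of the list overlapped in both strains, at 591 to 715 and 590 to 908 in BN controls and recipients and at 501 to 743 and 429 to 711 in DA.

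Several genes of macrophage activation and repair rose from near the floor of the array, with larger estimates in BN than in DA, and the difference between strains passed the test for 3 of those described here. C1qc, a chain of complement C1q, was 0.059 on average in BN controls and 2.04 in BN recipients, and was 3.57-fold higher in DA recipients than in DA controls (log2 change 3.33 ± 0.59, adjusted p = 0.00012; difference between strains, adjusted p = 0.24). C1qa changed by 4.33 in BN and 0.57 in DA (adjusted p of the difference 0.39). Arg1, the arginase of repair macrophages, was 0.147 and 1.58 in BN and 0.089 and 0.332 in DA controls and recipients (log2 change 2.59 ± 0.41). Mmp14, a membrane matrix metalloproteinase, changed by 3.10 in BN and 0.18 in DA (adjusted p of the difference 0.25). In the list of complement and acute phase genes 9 of 17 rose and 1 fell (median 0.50; 11 and none after quantile normalization), and in the list of repair and matrix genes 8 of 14 rose and 2 fell (median 0.44; 9 and 1). Over all genes 19.9% rose and 47% fell, with 24.8% and 22.9% after quantile normalization. Ms4a7, a tetraspanning protein of macrophages, was at 0.0307 to 0.104 in BN controls, near the floor, and at 0.0908 to 4.14 in BN recipients. In DA, Ms4a7 was not near the floor, at 2.40 on average in controls and 1.47 in recipients (log2 change -0.71). Its difference between strains passed (adjusted p = 0.066), as did that of Ccl2, a chemoattractant of monocytes, at 3.32 in BN and -0.07 in DA (adjusted p = 0.088), and of the lysosomal protease Ctsl (adjusted p = 0.087). The across-strain change of Ms4a7 (1.66, adjusted p = 0.088) did not pass without any 1 of BN recipients 3, 4, 6 and 7 or any 1 of the 3 BN controls, with values of 1.14 to 1.49. Cd163, a hemoglobin scavenger receptor, changed by 1.49 (adjusted p = 0.053), and by 1.22 to 1.26 with adjusted p of 0.13 to 0.14 without untransplanted BN 1, BN 3 or DA 3.

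Among inflammatory cytokines and NF-kB targets, 9 of 29 rose and 11 fell, with 11 and 2 after quantile normalization. Over all genes 19.9% rose and 47% fell, with 24.8% and 22.9% after quantile normalization. Cxcl2, which attracts neutrophils, was 0.102 and 0.445 on average in BN controls and recipients and 0.081 and 0.507 in DA (log2 change 2.41 ± 0.45), and Hbegf, a growth factor shed at wounds, rose by 1.69. Both had a mean level under the array median in each of the 4 groups. Il1b rose by 1.11, from 4.8 to 8.96 in BN and from 2.94 to 7.11 in DA.

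T cell and B cell transcripts fell in both strains, and their list medians were below 0 on the 3 scales given here. All 19 measured T cell genes fell, with a median log2 change of -0.96. Of them, 16 had no overlap between recipients and controls in either strain, against 25.8% of all genes that did so in this direction. All 19 had a mean level at or above the array median, against 8834 of all 14217 genes. Lists of bright genes that every cell uses also had many such members. These were 38 of 41 cytosolic ribosomal proteins, 46 of 56 respiratory chain, 23 of 30 proteasome and 16 of 23 splicing genes. After quantile normalization 14 T cell genes fell and 1 rose, with a median of -0.41, and on the deposited scale the median was -0.46. The share of all genes that fell was 47%, and 22.9% after quantile normalization. Cd3e, a chain of the T cell receptor complex, was 60.9 to 68.6 in BN controls and 26.8 to 43.2 in BN recipients, and 105 to 115 in DA controls and 40.1 to 65.7 in DA recipients. Its log2 change was -0.99 ± 0.12 (adjusted p = 2.7e-06), with a second probeset at -1.46. Cd3d and Cd3g fell by 1.08 and 0.89, and the adaptor Lat by 1.42. Thy1, a glycoprotein of recent thymic emigrants in the rat, was 4.54, 6.03 and 8.31 in BN controls and 0.815 to 1.89 in BN recipients. In DA it was 3.17 to 4.2 in controls and 0.889 to 1.92 in recipients. Thy1 fell by 1.84 ± 0.19 (adjusted p = 1.1e-06), its second probeset fell by 1.81, and it was the member of the list seen in both strains at the full threshold, a call that ended after quantile normalization (-1.46). Among genes of T cell activation 8 of 10 fell and none rose (6 after quantile normalization). Il2, the T cell growth factor, fell by 2.17 but was at 0.361 array medians or less on average in every group, and Cd40lg, the helper ligand for B cells, fell by 1.56. Cd69 fell by 1.05 and Il2ra by 0.77. Icos fell by 0.40 and was at 0.17 after quantile normalization (adjusted p = 0.17).

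Of 13 measured B cell genes 12 fell and Cd22 did not pass, with a median of -0.97, and after quantile normalization 8 fell and 1 rose, with a median of -0.43. The share of all genes that fell was 47%, and 22.9% after quantile normalization. Cd79b, the signalling chain of the B cell receptor, was 79.6, 96.4 and 98.1 in BN controls and 33, 21, 13.6, 28.5 and 20.8 in BN recipients 3 to 7. In DA it was 69.2, 76.6 and 46.8 in controls and 8.23 to 20.6 in recipients (log2 change -2.22 ± 0.20, adjusted p = 4.1e-07). The groups did not overlap in either strain. Ms4a1 (CD20) fell by 1.28 ± 0.15, from 80.6 to 40.2 on average in BN and from 68.1 to 23.7 in DA. Cd22, an inhibitory receptor, changed by -0.20 (adjusted p = 0.21), and was higher at 0.35 after quantile normalization. Plasma cell genes did not move together. Jchain, which joins IgA and IgM, fell from 11.9 to 16.8 in BN controls to 5.16 to 9.64 in BN recipients, and was 6.43 to 9.02 in DA controls and 8.77 to 27.4 in DA recipients, and this difference between strains passed the test (log2 -2.11, adjusted p = 0.039). Sdc1 (syndecan-1) rose by 0.71, Pou2af1 fell by 0.96 and Mzb1 did not pass (-0.37).

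The medians of the cytotoxic and platelet lists changed sign with the scale. Over all genes 19.9% rose and 47% fell (median -0.27), and 24.8% rose and 22.9% fell after quantile normalization (median 0.02). Before quantile normalization the share that fell in each of these lists was below that 47%, and on both scales their medians were above those of all genes. Of 19 NK and cytotoxic genes 1 rose and 6 fell with a median of -0.15, but 13 rose and 1 fell after quantile normalization, with a median of 0.37. Prf1 (perforin) was at -0.12 and Klrd1 (CD94) at -0.33, and after quantile normalization they were at 0.47 and 0.25. Klrk1 (NKG2D) fell by 1.12 and Ncr1 (NKp46) by 0.77, and Ncr1 did not pass after quantile normalization (-0.26). Cd8b changed by 0.40 in BN and -0.66 in DA (adjusted p of the difference 0.079). Of 16 platelet genes none rose and 6 fell with a median of -0.24, but 9 rose and 1 fell after quantile normalization, with a median of 0.33. Gp5, of the von Willebrand receptor, fell by 1.25 and Pf4, a platelet chemokine, fell by 0.50 but was at 0.20 after quantile normalization. Ppbp was at -0.25 (adjusted p = 0.18). In the dendritic cell list 6 of 9 fell and 1 rose (4 and 2 after quantile normalization). Flt3, the receptor of their progenitors, fell by 2.93 from 0.71 and 0.62 on average, which is below the array median. Itgax was at -0.03, and at 0.54 after quantile normalization.

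Heart muscle genes were near the floor of the array. All 12 heart muscle genes had a mean level under the array median. Myh6, Tnnt2 and Myh7 did not pass the test, 3 genes of the list rose and 1 fell, and Pln and Nppb changed by 1.61 and -1.86 at levels of 0.488 or less on average. Endothelial genes were not at the floor, with 5 of 9 at or above the array median. Of the 9, 2 rose and 3 fell (2 and 2 after quantile normalization), with Pecam1, which leukocytes and platelets also carry, at -0.36. In the eosinophil, basophil and mast cell list 4 of 12 rose and none fell, and 1 and 1 after quantile normalization. For these 3 lists the shares of all genes that rose and fell were 19.9% and 47%, and 24.8% and 22.9% after quantile normalization.

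**Figure D4:**
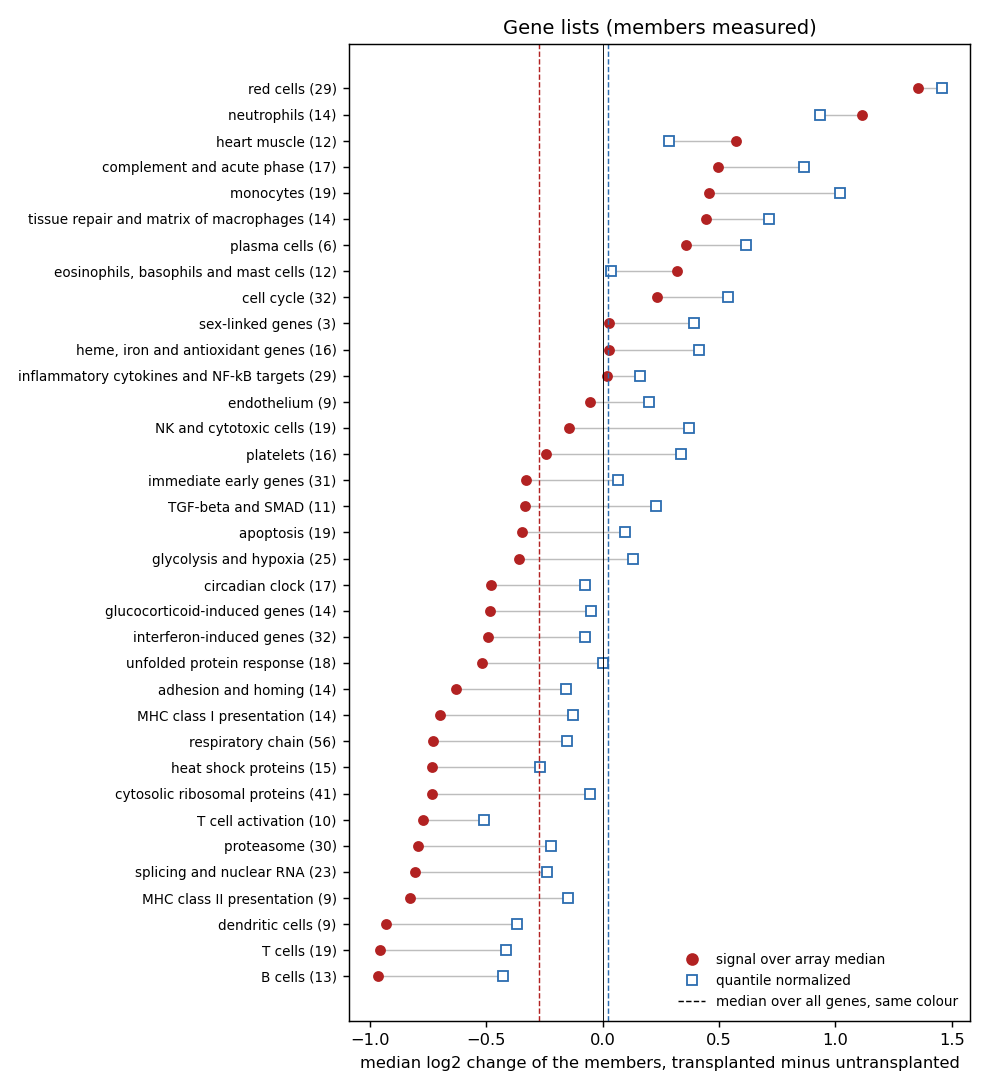
Median log2 change of the measured members of each of 35 gene lists (number measured in brackets), for signal over array median (filled circles) and after quantile normalization (open squares), with dashed lines at the medians of -0.27 and 0.02 over all 14217 genes. Red cells (1.36 and 1.46) and neutrophils (1.11 and 0.94) are highest and T cells (-0.96 and -0.41) and B cells (-0.97 and -0.43) lowest on the first scale.

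Cell cycle genes moved in both directions. Of 32 measured, 16 rose and 12 fell, with 16 and 5 after quantile normalization. Among all genes 19.9% rose and 47% fell, with 24.8% and 22.9% after quantile normalization. Ube2c, the ubiquitin-conjugating enzyme of the anaphase-promoting complex, was 0.816 to 1.56 in BN controls and 3.64 to 5.61 in BN recipients, and 0.869 to 1.22 and 2.41 to 7.06 in DA, with no overlap in either strain (log2 change 1.98 ± 0.22, adjusted p = 1.7e-06). Mki67 rose by 1.45, the kinetochore protein Cenpf by 1.38, and Top2a, which untangles chromosomes, by 0.98. Tk1 and Tyms, which supply thymidine for DNA synthesis, rose by 1.38 and 1.55. The mitotic kinase Aurkb did not pass the test (-0.15, adjusted p = 0.40). All 6 subunits of the Mcm helicase, which opens DNA for replication, fell, with a median of -0.92, and 3 fell and none rose after quantile normalization, with a median of -0.37. Mcm3 fell by 1.33 and Mcm6 by 1.24. The Mcm genes and the other genes named here beside Ube2c and Tyms were picked out of the list after their values were seen.

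Lists of genes that every cell uses fell with the median scale, and their medians were closer to 0 after quantile normalization. There, 22.9% of all genes fell. The share that fell stayed above this in the respiratory chain, proteasome and splicing lists, and was near it in the ribosomal list. Of 56 respiratory chain genes 54 fell (median -0.73), and 26 fell and 4 rose after quantile normalization (-0.15). Of 41 cytosolic ribosomal proteins 39 fell (-0.74), and 10 fell and 2 rose (-0.06). Rpl39 was the exception on the first scale and rose by 1.33. Of 30 proteasome genes 29 fell (-0.80), and 18 fell and 1 rose (-0.22). Of 23 splicing genes 22 fell (-0.81), and 14 fell and 2 rose (-0.24), and Srsf3, a splicing factor, fell by 1.79 across strains (-1.72 in BN and -1.84 in DA). Over all probesets past the signal criterion the median on the first scale was -0.49. MHC class II genes fell in 9 of 9 (-0.83; 5 and none after quantile normalization) and class I presentation genes in 12 of 14 (-0.70; 4 fell and 2 rose).

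Stress and rhythm lists held a few larger changes. Over all genes 19.9% rose and 47% fell on the first scale, and 24.8% rose and 22.9% fell after quantile normalization. On the first scale the immediate early, circadian clock, glucocorticoid-induced, and glycolysis and hypoxia lists had shares that fell near that 47%. Of 31 immediate early genes 3 rose and 15 fell (7 and 8 after quantile normalization), and Jun fell by 1.46 and Zfp36, which destabilises cytokine mRNA, by 1.23. Of 15 heat shock genes 13 fell (7 after quantile normalization), with the Hsp90 co-chaperone Stip1 down by 1.31 and Fkbp4 by 1.16. Among 17 circadian clock genes 9 fell and 2 rose (5 and 3 after quantile normalization). The clock repressor Per3 was 0.703 to 1.16 in BN controls and 0.12 to 0.171 in BN recipients, and 1.39 to 1.92 and 0.164 to 1.39 in DA, and fell by 1.89 ± 0.33 (adjusted p = 9.4e-05). Its output gene Dbp fell by 1.22 and Bmal1, an activator of the clock, by 0.98, on means of 5.17 and 2.39 and of 3.57 and 1.78 in BN controls and recipients. The hour of sampling is not given in the sources used here. Of 14 glucocorticoid-induced genes 3 rose and 7 fell, and after quantile normalization none rose and 1 fell. Of 25 genes of glycolysis and hypoxia 4 rose and 13 fell, and 10 rose and 5 fell after quantile normalization, where the median turned from -0.36 to 0.13. Vegfa was up by 1.33 and Eno1 down by 1.00. Of 16 heme, iron and antioxidant genes 7 rose and 4 fell, and 9 rose and none fell after quantile normalization (median 0.02 and 0.41). Gclm, of glutathione synthesis, rose by 1.44, from 3.64 to 7.25 in BN and from 3.83 to 13.5 in DA. In the unfolded protein response list 12 of 18 fell and 2 rose, with 6 and 5 after quantile normalization, and in the adhesion and homing list 10 of 14 fell and 2 rose, with 6 and 5. Apoptosis and TGF-beta genes changed direction with the scale. Of 19 apoptosis genes 10 fell and 1 rose, against 4 and 7 after quantile normalization (median -0.35 and 0.09). Of 11 TGF-beta and SMAD genes 6 fell and 2 rose, against 3 and 4 (median -0.34 and 0.23). Both shares that fell on the first scale were near the 47% of all genes.

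The named genes that fell were measured by probesets at 1.09 to 4.31 array medians on average in controls and at 0.296 or less in recipients. The 10 named genes were Ube2g2 (a ubiquitin-conjugating enzyme), Zfp758 (a zinc finger protein), App (amyloid precursor protein), Immt (a mitochondrial inner membrane organiser), Atf7ip (a chromatin cofactor), Dcaf15 (a ubiquitin ligase adaptor), Cop1 (a ubiquitin ligase), Taok3 (a kinase), Rcbtb2 and Pfkm (a phosphofructokinase), with log2 changes of -4.24 to -3.50. Ube2g2 was 2.39 to 3.64 in BN controls and 0.124 to 1.92 in BN recipients, and 4 to 4.66 in DA controls and 0.041 to 0.298 in DA recipients (log2 change -4.24 ± 0.50, adjusted p = 2.7e-06). Immt was 1.08 to 1.54 and 1.55 to 2.85 in BN and DA controls and 0.078 to 0.15 and 0.060 to 0.184 in recipients (log2 change -4.11 ± 0.25). The 10 were chosen among genes with no overlap between recipients and controls.

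Other probesets of the same genes changed less, but the called probesets were chosen for a fold of 3 or more and the others were not. A smaller change in the others is thus partly built into the comparison. The second probeset of Ube2g2 changed by -1.23 and that of Zfp758 by -0.49. Of the 325 named probesets lower in both strains 257 belonged to a gene with another probeset, and the brightest of those others was brighter in 237. It was itself lower in both strains in 9, had the same sign in 249 and had a median change of -0.69, against -1.96 for the probesets that were called. Over all probesets past the signal criterion the median change was -0.49. For the 23 probesets higher in both strains with another probeset of the gene, the median changes were 1.99 and 1.13, the sign was the same in 21 and the other probeset was in no case seen in both strains by the full rule, although those of Slc4a1 (2.97) and Creg1 (1.75) were called across strains. Of the 394 lower probesets, 223 met the signal criterion in the controls only and had to differ to be called. Of the 87 higher, 61 met it in the recipients only. With the Actb 3′ to 5′ ratio as a covariate 260 probesets were called lower in recipients in place of 448. The part of RNA or labelling quality in these falls was not tested.

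**Figure D5:**
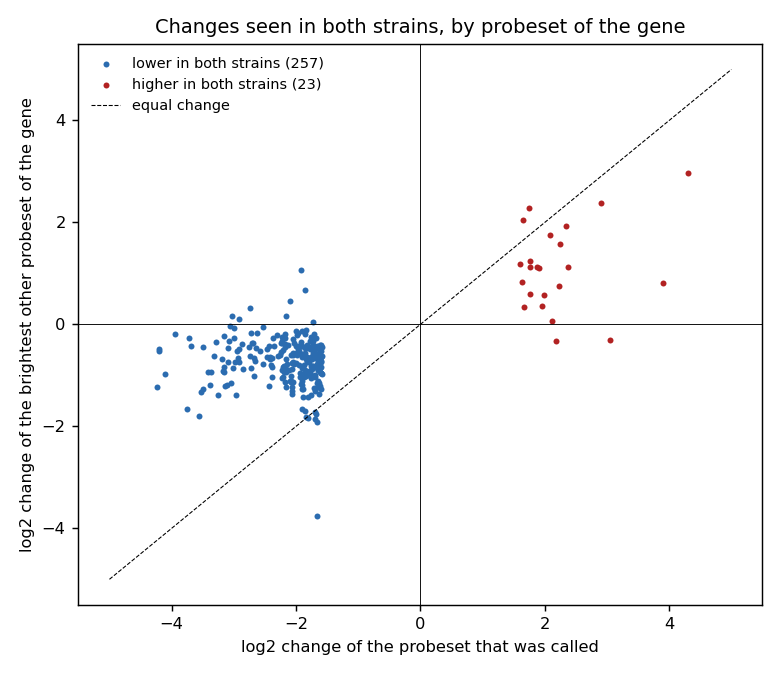
Log2 change of each probeset seen in both strains (x axis) against that of the brightest other probeset of the same gene (y axis), for 257 lower (blue) and 23 higher (red) probesets, with a dashed line of equal change. Most blue points lie between -1.5 and 0 on the y axis whatever their place on the x axis.

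Further genes that were higher in both strains, chosen after their values were seen, included secreted and surface proteins of phagocytes. Lrg1 (a leucine-rich glycoprotein of neutrophils) rose by 1.75, to 36.6 on average in BN recipients, and from 3.39 to 11.4 in DA. Slpi (an inhibitor of neutrophil elastase) rose by 1.96, Olr1 (the receptor of oxidised LDL) by 2.23, Steap4 (a metalloreductase) by 2.28, Vcan (versican, of monocytes) by 1.91 and the cholesterol exporter Abca1 by 1.64. Fbln1 and Col3a1, extracellular matrix genes of fibroblasts, rose by 1.75 and 1.70 at mean levels of 4.44 and 1.37 in BN recipients and 1.47 and 1.31 in DA recipients. Of the probesets that met every other criterion, Fndc3b was the riser just inside the fold of 3, at 3.03, and Mpzl2 the one just outside, at 2.98. On the falling side Cxcr5 and Tpgs1 lay just inside and just outside, both at 3 when rounded.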

How the data were processed

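The 20 PBMC arrays were analysed. The authors processed the scans with Affymetrix MAS 5 (the submitters' processing notes name it), and the deposited values are linear signal intensity scaled to a common trimmed mean. No column of another series was present (0). Control probesets (57) were left out, which kept 31042. Names came from the platform annotation: 20826 probesets had 1 symbol, 436 several and 9780 none, and 20758 symbols matched RefSeq. Each signal was divided by its array median and log2 transformed. limma 3.58.1 (R 4.3.3) fitted strain and transplantation, and separately the 4 groups, with Benjamini-Hochberg adjustment over all probesets, adjusted p values of 0.10 or less and a fold of 3. The limma code was tested on simulated data. Lists took each gene's brightest probeset. Named genes were the 10 that rose and the 10 that fell most among changes seen in both strains with no overlap and 1 symbol, up to 2 members of largest change per list, and the first 3 measured markers of each cell type. The members and lists were chosen with earlier results of these data known. Each sample came from 1 animal by its label. Array measures were compared by an exact permutation test within strains. Precision is limited by the number of arrays. Quantile normalization, the deposited scale, a pseudocount, other thresholds, an Actb covariate, array weights and leaving out each sample were tried as alternatives. Centring on bright probesets and leaving out the 4 arrays of high spiked controls were added after the data were seen.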

Additional observations from a re-analysis of the deposited data

Results flagged for a closer look

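Within groups of 4 to 10 samples, 236 tests over 115 probesets and the array measures looked for 1 sample far from the others, and 23 were found. Chance gives about 1 in 20. Among BN allograft recipients, recipient 3 was the highest for Ube2g2 (1.92 array medians), Psmc3 (19.3), Tgif1 (13.9), Csf1r (69.6) and Itga2b (35), and the lowest for Rpl39 (4.16). Recipient 5 was the highest for S100a8 (93.2) and S100a9 (111) and the lowest for Ms4a7 (0.0908) and Ms4a2 (0.262). Recipient 7 was the lowest for Cd163 (0.246) and Tgfb3 (0.0861), recipient 4 the lowest for Mt2A (0.232) and recipient 6 the highest for RT1-Bb (46.8). Among DA isograft recipients, recipient 20 was the highest for Atf7ip (0.434) and the lowest for Emcn (0.0625) and Cpa3 (0.95). Recipient 17 was the lowest for Tap2 (4.41) and Per3 (0.164). Recipient 16 was the lowest for Srsf3 (0.25) and the highest for Itga2b (82). Recipient 11 was the lowest for Ube2g2 (0.0414) and had the highest log2 Gapdh 3′ to 5′ ratio (0.985).

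The change differed between strains by limma's test of the difference for 8 of the genes described, given here as the log2 change in BN minus that in DA with its adjusted p. The values were 5.21 for Ms4a7 (0.066), 3.38 for Ccl2 (0.088), 2.23 for Oas1a (0.0056), 1.85 for RT1-Ba (0.087), 1.71 for Ifitm3 (0.048), 1.07 for Cd8b (0.079), 1.07 for Ctsl (0.087) and -2.11 for Jchain (0.039). BN recipients carried allografts and DA recipients isografts, so that strain and type of graft cannot be told apart.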

How the results depend on the processing

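Counts are given as higher and lower, for the transplantation effect, within BN, within DA and in both strains. Quantile normalization gave 287, 280, 264 and 192 lower, and list medians of -0.41 for T cells and -0.43 for B cells. On the deposited scale the counts were 353 and 171, 390 and 171, 437 and 188, and 298 and 128, with medians of -0.46 and -0.47. Centring on the bright probesets, chosen after seeing the data, gave 342 and 174, and 293 and 134 in both strains, with medians of -0.47 and -0.48. A pseudocount of 0.25 gave 56 and 210, 72 and 269, 92 and 274, and 43 and 207. Without the signal criterion the counts were 977 higher, 1192 and 771, 1458 and 815, and 511 higher. With that criterion at the 65th percentile they were 54 and 228, 61 and 268, 71 and 264, and 43 and 219. At a fold of 2 they were 439 and 2307, 480 and 2482, 496 and 2352, and 198 and 1446. A within-strain fold of 3 left 52 and 259. The Actb covariate left 260 lower. The changes of scale and threshold act on the counts by construction, and for the Actb covariate the cause was not tested. Quantile normalization turned Klrd1 (0.25), Prf1 (0.47), Icos (0.17), Cd22 (0.35), Itgax (0.54), Pf4 (0.20) and Pecam1 (0.20), and the deposited scale turned Klrd1 (0.17), Prf1 (0.37), Icos (0.10), Cd22 (0.29), Ms4a2 (0.49), Itgax (0.46) and Pecam1 (0.14). Leaving out 1 sample at a time gave 105 to 136 higher and 392 to 506 lower, 135 to 190 and 395 to 637 within BN, 162 to 205 and 428 to 646 within DA, and 69 to 98 and 321 to 453 in both strains. Of 2300 values of single genes so obtained, 2261 kept their side of the threshold and direction, 30 lost and 9 gained the call, and 0 reversed. No paired analysis was possible because the transplanted and untransplanted samples of a strain came from different animals.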
